A study of Arabidopsis thaliana with 12 samples.

Results

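The genes of aliphatic glucosinolate synthesis described here were 10 loci, chosen by name from the pathway with earlier results of these data known, out of 32846 genes in a table of messenger RNA levels from Arabidopsis thaliana seedlings. They comprised the regulators MYB28 [AT5G61420] and MYB29 [AT5G07690], the chain elongation genes BCAT4 [AT3G19710], MAM1 [AT5G23010] and MAM3 [AT5G23020], and the transporter gene BAT5 [AT4G12030]. The other members act in the core structure and are CYP79F1 [AT1G16410], CYP83A1 [AT4G13770], SOT17 [AT1G18590] and SOT18 [AT1G74090]. A member below 1 FPKM (fragments per kilobase of gene, scaled to the fragments of the library) in all 12 libraries was called not expressed, which applied to MYB29 and left 9 expressed members. Of the 10 members, 6 reached 1 FPKM in at least 3 libraries and could be tested, and 4 did not.

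The study crossed 2 genotypes with 2 treatments, with 3 libraries in each of the 4 groups. The groups were irr seedlings with AtPep1, irr seedlings with water, wild-type (WT) seedlings with AtPep1 and WT seedlings with water. The mutant, also labelled rrm, is named for IRR, known as an immunoregulatory RNA-binding protein, and AtPep1 is a peptide that plants release on damage and that triggers immune responses. All plants were of the Columbia 0 background, were 7 to 10 days old, and waited 3 h in wells of liquid MS medium, some 15 to each, before a treatment of 24 h in constant light. The Pep1 groups received 1 µM peptide. The controls carry the label untreated, whereas the protocol names water. The replicates are called biological, but no label ties them to separate cultures or days, so p-values cover the variation among these libraries and part of it may be technical. A single mutant line was used, with no further allele or complemented line among the groups. In whole seedlings, fewer cells that express a gene and less RNA per cell cannot be told apart.

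Glucosinolates are sulfur-rich defence compounds of the cabbage order, stored away from the myrosinases that break them down when tissue is damaged. The aliphatic ones start from methionine. BCAT4 removes its amino group, BAT5 carries the resulting keto acid into the plastid, and MAM1 and MAM3 add carbons to the chain. CYP79F1 and CYP83A1 then build the core with further enzymes, and the sulfotransferases SOT17 and SOT18 add the sulfate that completes it. MYB28 and MYB29 are the transcription factors that switch on these genes. A parallel pathway with its own enzymes, among them SOT16, makes indole glucosinolates from tryptophan.

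Library totals recovered from the values lay between 17.4 M and 28.6 M reads in 11 libraries and at 56.5 M in replicate 3 of irr with water. The protocol states 20 M raw reads for each sample, and the values do not show whether single reads or pairs were counted, so read counts, floors and counting errors below hold up to that unit. The locus of IRR, AT3G23900, averaged 11.2 FPKM in irr with Pep1, 11.95 FPKM in irr with water, 11.6 FPKM in WT with Pep1 and 12.8 FPKM in WT with water, so its level did not separate the genotypes. Every one of 12 green tissue markers and 8 of 11 root markers reached 1 FPKM in some library. The 6 that were tested had means between the 14.05 percentile (CYP83A1) and the 42.5 percentile (SOT17) of the 18177 genes tested.

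In outline, the members did not move as 1 group. SOT17 was higher in irr than in WT over both treatments, and it was the 1 member of 6 tested that passed the threshold in any comparison. MYB28, MAM1 and CYP83A1 had their highest group mean in WT with water and did not pass, and neither did MAM3 and SOT18. CYP79F1, BCAT4 and BAT5 reached 1 FPKM in a single library, WT water replicate 1.

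**Figure D1:**
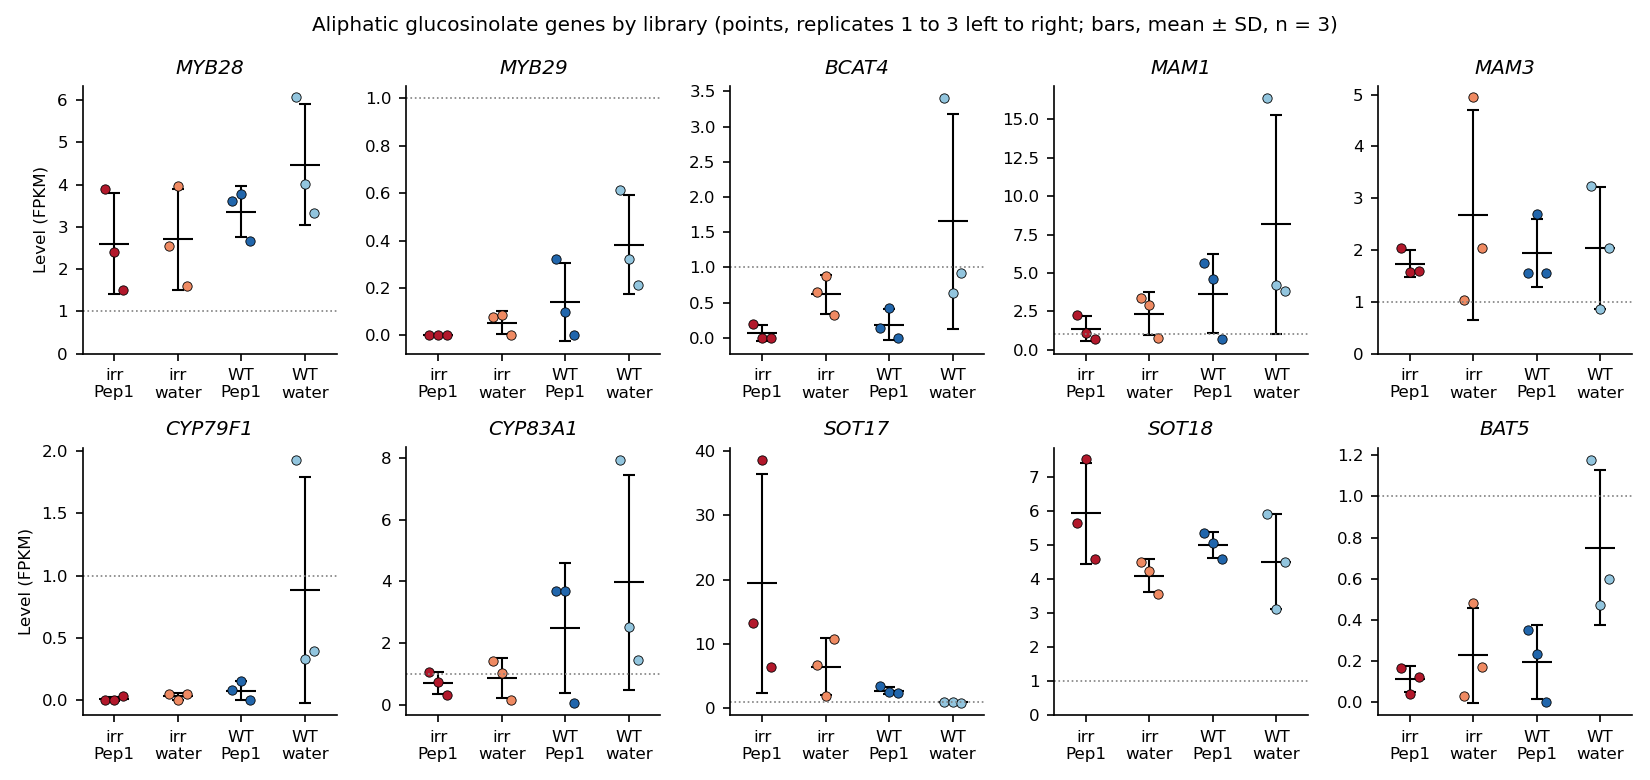
Level in FPKM (y axis, linear, a scale for each gene) of the 10 genes in irr with Pep1, irr with water, WT with Pep1 and WT with water (x axis); points are libraries, bars the mean ± SD over 3 libraries, and the dotted line marks 1 FPKM. SOT17 stands highest in irr with Pep1, whereas WT water replicate 1 gives the highest point for MYB28, MYB29, BCAT4, MAM1, CYP79F1, CYP83A1 and BAT5.

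Of the regulators, MYB28 was read in every library. It had 3.89, 2.41 and 1.505 FPKM in irr with Pep1 and 2.54, 3.98 and 1.59 FPKM in irr with water. In WT it had 3.62, 3.78 and 2.66 FPKM with Pep1 and 6.08, 4.02 and 3.32 FPKM with water. The groups overlapped in each comparison of 2 groups, and the highest value was that of WT water replicate 1. MYB29, the second regulator, was listed at 0 in all 3 libraries of irr with Pep1 and had 0.08, 0.09 and 0 FPKM in irr with water. It had 0.32, 0.10 and 0 FPKM in WT with Pep1 and 0.61, 0.32 and 0.21 FPKM in WT with water. These values rest on 65 reads in all. The limit that a count of 0 allows was taken as 3 reads per library, or 0.105 FPKM in irr with Pep1 (counting error only). The MYB29 mean of 0.383 FPKM in WT with water stood 3.65-fold above that limit. That mean rests on 45 reads, 28 of them in WT water replicate 1, and its own error is not covered. In the other 2 libraries of the group the mean was 0.268 FPKM. These 2 groups differ in both genotype and treatment. Every library lay below 1 FPKM, so MYB29 was not among the genes tested.

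The chain elongation genes differed among themselves. BCAT4, which takes the amino group from methionine, had 0.20, 0 and 0 FPKM in irr with Pep1, against 0.66, 0.87 and 0.32 FPKM in irr with water. In WT it had 0.14, 0.42 and 0 FPKM with Pep1, against 3.41, 0.63 and 0.93 FPKM with water. In both genotypes every Pep1 library lay below every water library. The group with Pep1 rested on 5 reads in irr and on 15 reads in WT, so the gene was close to the limit of detection there. MAM1, the first elongating enzyme, had 2.28, 1.08 and 0.74 FPKM in irr with Pep1 and 3.39, 2.92 and 0.76 FPKM in irr with water. It had 5.66, 4.60 and 0.73 FPKM in WT with Pep1 and 16.4, 4.25 and 3.86 FPKM in WT with water. Under water all irr libraries lay below all WT libraries, whereas the genotypes overlapped with Pep1. The coefficient of variation of MAM1 in WT with water was 87.2%, with 810 reads in WT water replicate 1 and 128 and 158 in the other 2 libraries.

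MAM3 elongates to longer chains and lies beside MAM1 in the TAIR10.1 reference. It had 2.04, 1.57 and 1.598 FPKM in irr with Pep1 and 1.04, 4.95 and 2.04 FPKM in irr with water. It had 1.56, 2.69 and 1.56 FPKM in WT with Pep1 and 3.23, 0.86 and 2.04 FPKM in WT with water. All 4 groups overlapped, and its highest library was irr water replicate 2, not WT water replicate 1. Set against MAM3 within each library, MAM1 stood at 1.12, 0.687 and 0.460 times MAM3 in irr with Pep1 and at 3.26, 0.590 and 0.372 times in irr with water. The same ratio of levels was 3.62, 1.71 and 0.467 in WT with Pep1 and 5.08, 4.93 and 1.89 in WT with water. MAM1 thus exceeded MAM3 in all 3 libraries of WT with water and in 1 of 3 libraries of irr under either treatment. The 2 genes are related in sequence and adjacent, and the labels do not say how reads were divided between them.

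BAT5, the importer of keto acids into the plastid, had 0.17, 0.04 and 0.12 FPKM in irr with Pep1 and 0.03, 0.48 and 0.17 FPKM in irr with water. It had 0.35, 0.24 and 0 FPKM in WT with Pep1 and 1.18, 0.47 and 0.60 FPKM in WT with water. In WT all Pep1 libraries lay below all water libraries, while the genotypes overlapped under both treatments, by the margin of irr water replicate 2 in the water comparison.

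Of the core cytochrome P450 genes, CYP79F1 takes the elongated amino acid to its oxime and was almost silent. It had 0, 0 and 0.03 FPKM in irr with Pep1 and 0.05, 0 and 0.05 FPKM in irr with water, on 1 and 7 reads. In WT it had 0.08, 0.15 and 0 FPKM with Pep1, against 1.93, 0.33 and 0.39 FPKM with water. WT with water held 121 of the 137 reads of the gene, 95 of them in replicate 1 and 10 and 16 in the other 2 libraries. The level in WT with water lay above both irr with water and WT with Pep1 in all 3 libraries. CYP83A1 takes the oxime onward and had 1.06, 0.75 and 0.32 FPKM in irr with Pep1 and 1.41, 1.03 and 0.14 FPKM in irr with water. It had 3.70, 3.70 and 0.07 FPKM in WT with Pep1 and 7.94, 2.52 and 1.46 FPKM in WT with water. Under water all irr libraries lay below all WT libraries, the closest pair being 1.41 and 1.46 FPKM. With Pep1 they overlapped, because WT Pep1 replicate 3 held 2 reads of the gene and the other 2 libraries of that group held 137 and 122.

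The sulfotransferase SOT17 ran the other way. It had 13.3, 38.7 and 6.33 FPKM in irr with Pep1 and 6.69, 1.89 and 10.8 FPKM in irr with water. It had 3.37, 2.43 and 2.32 FPKM in WT with Pep1 and 0.87, 1.01 and 0.84 FPKM in WT with water. Every irr library lay above every WT library of the same treatment, and every WT library with Pep1 lay above every WT library with water. In irr the treatments overlapped, and the spread was wide, with a coefficient of variation of 87.6% with Pep1 and 69.0% with water, against 21.3% and 10.2% in WT. SOT18, its partner in the last core step, had 5.67, 7.55 and 4.60 FPKM in irr with Pep1 and 4.50, 4.25 and 3.57 FPKM in irr with water. It had 5.36, 5.08 and 4.60 FPKM in WT with Pep1 and 5.93, 3.13 and 4.50 FPKM in WT with water. The SOT18 libraries with Pep1 lay above those with water in irr, by 4.60 against 4.50 FPKM at the closest, and overlapped in the other comparisons.

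Genotype was compared under water first, a comparison that asks how the mutation alone alters the seedlings' RNA. Differences were taken on log2(FPKM + 1), which understates the change of low genes, and tested by limma across all 18177 genes. None of the 6 members tested passed an adjusted p of 0.05, where 3.92% of all genes tested were called. Of the 6, 2 had an unadjusted p under 0.05, as had 3976 of the 18177 genes tested. SOT17 averaged 6.45 ± 4.45 FPKM in irr and 0.907 ± 0.0926 FPKM in WT (SD, n = 3 each), a difference of 1.75 ± 0.56 on the log2 scale (SE, limma adjusted p = 0.0957). MAM1 averaged 2.36 ± 1.40 FPKM in irr and 8.16 ± 7.12 FPKM in WT (SD, n = 3 each), a difference of -1.29 ± 0.59 (SE, limma adjusted p = 0.224). CYP83A1 averaged 0.861 ± 0.650 FPKM in irr and 3.97 ± 3.48 FPKM in WT (SD, n = 3 each), a difference of -1.26 ± 0.58 (SE, limma adjusted p = 0.231). The MYB28 difference was -0.58 ± 0.28 (SE, limma adjusted p = 0.258). For MAM3 and SOT18 the intervals of 2 SE on either side ran from -0.52 to 0.94 and from -0.47 to 0.30, which leaves differences in both directions possible. With no filter on level, the members too low to test entered the fit, and none passed under water. Their differences were -0.38 ± 0.11 for MYB29, -0.77 ± 0.24 for CYP79F1, -0.51 ± 0.17 for BAT5 and -0.58 ± 0.32 for BCAT4 (SE, limma adjusted p = 0.119, 0.134, 0.161 and 0.378). Of all 10 members, 5 had groups that did not overlap, SOT17 upward and MYB29, MAM1, CYP79F1 and CYP83A1 downward, where 22.2% of genes above 0 in some library showed no overlap.

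WT water replicate 1 carried much of the distance in MAM1 and CYP83A1. Its 16.4 FPKM of MAM1 stood against a mean of 4.05 FPKM in the other 2 libraries of its group, and its 7.94 FPKM of CYP83A1 against 1.99 FPKM. Without that library, the irr minus WT difference under water was -0.70 ± 0.56 for MAM1 (SE, limma adjusted p = 0.567) and -0.73 ± 0.58 for CYP83A1 (SE, limma adjusted p = 0.566). The SOT17 difference was 1.73 ± 0.66 without it (SE, limma adjusted p = 0.232). The summed level of the green tissue markers was 70530 to 83810 FPKM in irr with water, against 93230 to 111600 FPKM in WT with water, and WT water replicate 1 held the highest sum. Of the 12 markers, 10 had an irr minus WT difference below 0 under water and 2 above 0, and none was called. The part of green tissue in the differences of MAM1, CYP83A1 and SOT17 was not tested.

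With Pep1 present, the genotypes were compared again, to ask how the mutant and WT differ once the peptide has been perceived. SOT17 averaged 19.4 ± 17.03 FPKM in irr and 2.71 ± 0.576 FPKM in WT (SD, n = 3 each), and differed by 2.13 ± 0.56 on the log2 scale (SE, limma adjusted p = 0.0776). It did not pass, and none of the 6 did, where 1.53% of all genes tested were called. Of the 6, 1 had an unadjusted p under 0.05, as had 3210 of the 18177 genes tested. MAM1 averaged 1.37 ± 0.813 FPKM in irr and 3.66 ± 2.60 FPKM in WT (SD, n = 3 each), and differed by -0.82 ± 0.59 (SE, limma adjusted p = 0.494). CYP83A1 differed by -0.77 ± 0.58 (SE, limma adjusted p = 0.517) and MYB28 by -0.32 ± 0.28 (SE, limma adjusted p = 0.593). SOT17 was the 1 member of 10 whose groups did not overlap, where 18.6% of genes above 0 in some library showed no overlap.

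Over both treatments, the mean of the 2 genotype differences used all 12 libraries and gave the smallest errors. SOT17 was higher in irr, by 1.94 ± 0.39 on the log2 scale (SE, limma adjusted p = 0.0104). It was the 1 member called of 6 tested, where 12.4% of all genes tested were called and 8.55% were called higher, so the count describes SOT17 and not the members as a set. On group means of the FPKM values themselves, SOT17 in irr stood 7.18-fold above WT with Pep1 and 7.12-fold above WT under water. Without irr Pep1 replicate 2 the first of these was 3.63-fold, with a log2 difference of 1.48 ± 0.47 (SE, limma adjusted p = 0.24). Without irr water replicate 3 the second was 4.73-fold, with a log2 difference of 1.31 ± 0.58 (SE, limma adjusted p = 0.301). With Pep1, SOT17 passed without irr Pep1 replicate 3 (2.70 ± 0.51, SE, limma adjusted p = 0.0091) or irr water replicate 2 (limma adjusted p = 0.0456). Under water it passed without irr water replicate 2 (2.32 ± 0.51, SE, limma adjusted p = 0.0305). It also passed there without irr Pep1 replicate 2 or 3 (limma adjusted p = 0.0297 and 0.0441). Without any other single irr library it did not pass. Calls over all genes rose in these fits as well. With Pep1 they went from 278 of 18177 to 1646 and 341, in the order given. Under water they went from 713 to 1051, 1431 and 1330. The SOT17 values of irr and WT over both treatments together overlapped, because irr water replicate 2 at 1.89 FPKM lay below all 3 libraries of WT with Pep1. MAM1 differed by -1.05 ± 0.41 (SE, limma adjusted p = 0.115), CYP83A1 by -1.02 ± 0.41 (SE, limma adjusted p = 0.126) and MYB28 by -0.45 ± 0.20 (SE, limma adjusted p = 0.160). Each had an unadjusted p under 0.05, as had 5399 of the 18177 genes tested. These 3 members did not pass, while without WT Pep1 replicate 3 both MAM1 and CYP83A1 did, at -1.36 ± 0.37 (SE, limma adjusted p = 0.0496) and -1.37 ± 0.32 (SE, limma adjusted p = 0.0305). Calls over all genes were 1314 of 18177 without that library, against 2262 with it. In all 4 groups MAM1, CYP83A1 and MYB28 had their lowest value in replicate 3, and MAM1 had its highest in replicate 1, so levels of these 3 genes went with the replicate number as well as with the group. With no filter on level, MYB29 differed by -0.28 ± 0.08 over both treatments (SE, limma adjusted p = 0.064), and BCAT4, CYP79F1 and BAT5 did not pass either (limma adjusted p = 0.37, 0.155 and 0.167). MAM3 and SOT18 differed by 0.06 ± 0.26 and 0.05 ± 0.14 (SE), with intervals from -0.46 to 0.58 and from -0.22 to 0.32.

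**Figure D2:**
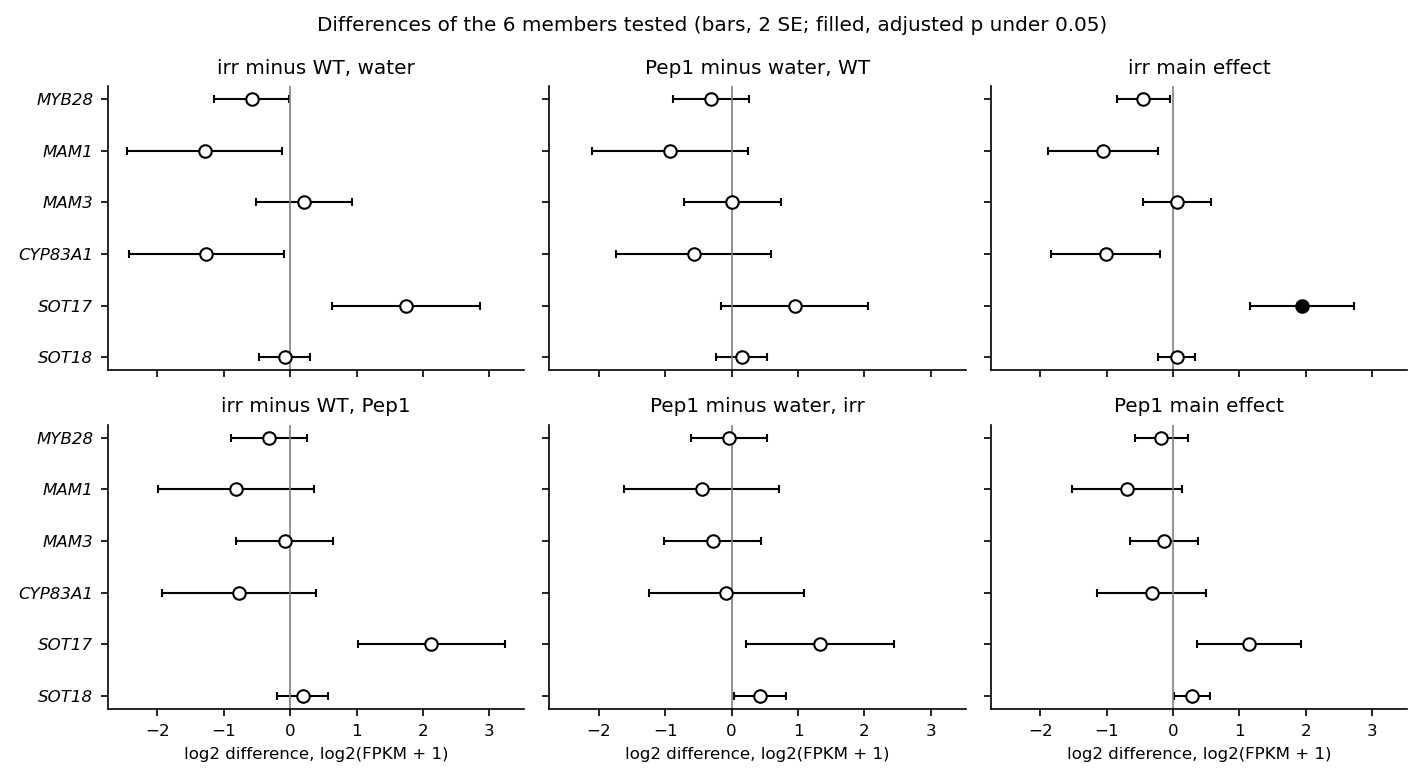
Difference on log2(FPKM + 1) (x axis) of the 6 genes tested (y axis), irr minus WT in the left column, Pep1 minus water in the middle column and the means of both in the right column; points are limma estimates, bars 2 SE to either side, and a filled point has an adjusted p under 0.05. SOT17 in the irr main effect, at 1.94, is the filled point.

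The Pep1 response of WT was the comparison that asks what the peptide does in unmutated seedlings. SOT17 averaged 2.71 ± 0.576 FPKM with Pep1 and 0.907 ± 0.0926 FPKM with water (SD, n = 3 each), a difference of 0.95 ± 0.56 (SE, limma adjusted p = 0.363). None of the 6 members passed, where 3.47% of all genes tested were called. None of them had an unadjusted p under 0.05 in limma, where 3797 of the 18177 genes tested had. In a fit of these 2 groups alone, whose SOT17 libraries vary little, the same SOT17 difference passed (SE 0.15, limma adjusted p = 0.00847). That fit called 1974 of the 18177 genes tested, against 630 in the fit of all 4 groups. MAM1 averaged 3.66 ± 2.60 FPKM with Pep1 and 8.16 ± 7.12 FPKM with water (SD, n = 3 each), a difference of -0.93 ± 0.59 (SE, limma adjusted p = 0.401), or -0.33 ± 0.56 without WT water replicate 1. Of 10 members, 4 had groups that did not overlap, SOT17 upward and BCAT4, CYP79F1 and BAT5 downward, where 25.7% of genes above 0 in some library showed no overlap. BCAT4, CYP79F1 and BAT5 were not tested, because they passed 1 FPKM in too few libraries. With no filter on level none of them passed, and their differences were -1.03 ± 0.32, -0.71 ± 0.24 and -0.54 ± 0.17 (SE, limma adjusted p = 0.14, 0.171 and 0.149).

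In irr the Pep1 response gave SOT17 means of 19.4 ± 17.03 FPKM with Pep1 and 6.45 ± 4.45 FPKM with water (SD, n = 3 each). The difference was 1.33 ± 0.56 (SE, limma adjusted p = 0.232). SOT18 averaged 5.94 ± 1.495 FPKM with Pep1 and 4.11 ± 0.482 FPKM with water (SD, n = 3 each), a difference of 0.43 ± 0.19 (SE, limma adjusted p = 0.269). None of the 6 passed, where 1.99% of all genes tested were called. SOT17 and SOT18 had an unadjusted p under 0.05, as had 3315 of the 18177 genes tested. MYB28, MAM3, MAM1 and CYP83A1 had differences between -0.45 and -0.04, with SE between 0.28 and 0.59. Of 10 members, SOT18 upward and BCAT4 downward had groups that did not overlap, where 14.9% of genes above 0 in some library showed no overlap.

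As the mean over both genotypes, the Pep1 difference of SOT17 was 1.14 ± 0.39 (SE, limma adjusted p = 0.0806). It had the smallest p of the 6, none of which passed, where 11.6% of all genes tested were called. Of the 6, 1 had an unadjusted p under 0.05, as had 5250 of the 18177 genes tested. With no filter on level, BCAT4 differed by -0.81 ± 0.22 (SE, limma adjusted p = 0.0601). SOT17 passed without irr Pep1 replicate 3, at 1.42 ± 0.35 (SE, limma adjusted p = 0.018), and without irr water replicate 3, at 1.36 ± 0.39 (SE, limma adjusted p = 0.046). Calls over all genes were 3240 and 2216 of 18177 in these fits, against 2100 with all libraries. Whether Pep1 acted differently in the 2 genotypes was tested by the interaction. No member passed, no member had an unadjusted p under 0.05, and 0% of all genes tested were called by limma, with 1219 genes of 18177 at an unadjusted p under 0.05. For SOT17 the Pep1 difference in irr minus that in WT was 0.38 ± 0.79 (SE, limma adjusted p = 0.975), with an interval from -1.19 to 1.95 that covers a lesser and a greater response in the mutant.

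The 3 desulfoglucosinolate sulfotransferases were set side by side, since SOT16 [AT1G74100], the indole enzyme, lies beside SOT18 in TAIR10.1 and SOT17 lies elsewhere. SOT16 had 64.4, 184 and 39.9 FPKM in irr with Pep1 and 46.9, 20.6 and 72.7 FPKM in irr with water. It had 24.8, 25.4 and 19.2 FPKM in WT with Pep1 and 13.9, 13.999 and 11.2 FPKM in WT with water. As for SOT17, irr Pep1 replicate 2 was the highest of the 6 irr libraries and irr water replicate 2 the lowest. SOT16 was higher in irr over both treatments, by 1.66 ± 0.35 on the log2 scale (SE, limma adjusted p = 0.0123), whereas its neighbour SOT18 differed by 0.05 ± 0.14. The genes beside SOT17, GAUT11 [AT1G18580] and RBL12 [AT1G18600], differed by -0.02 and 0.03 (limma adjusted p = 0.918 and 0.823).

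SOT17 was not a fixed share of SOT16. As a percentage of the SOT16 level it stood at 20.6, 21.0 and 15.9 in irr with Pep1 and at 14.3, 9.17 and 14.8 in irr with water. It stood at 13.6, 9.59 and 12.1 in WT with Pep1 and at 6.30, 7.23 and 7.49 in WT with water. Every irr library with Pep1 lay above every other library, and every WT library with water lay below every other library. Against SOT18, the SOT17 level was 2.35, 5.12 and 1.38 times as high in irr with Pep1 and 1.49, 0.444 and 3.02 times in irr with water. In WT it was 0.629, 0.479 and 0.503 times the SOT18 level with Pep1 and 0.147, 0.323 and 0.186 times with water. SOT18 therefore was the more abundant of the aliphatic pair in all 6 WT libraries, and SOT17 in 5 of 6 irr libraries. The labels do not say how reads were divided among these related genes, and the differences between the 3 genes were not tested.

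**Figure D3:**
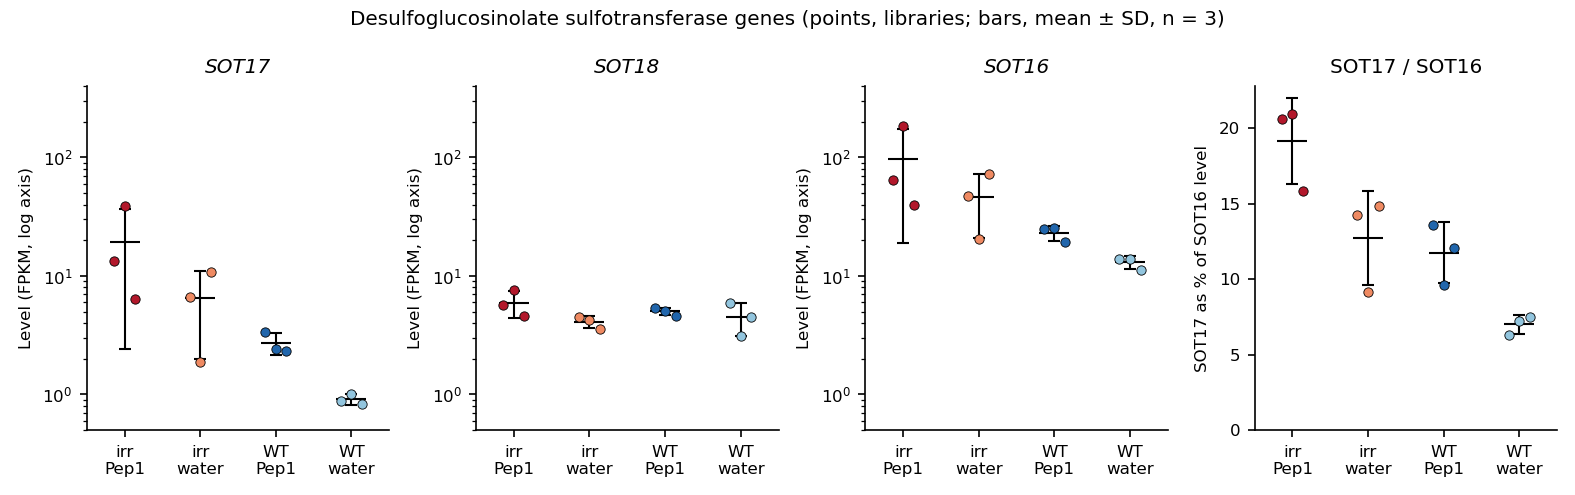
Level in FPKM (y axis, log scale) of SOT17, SOT18 and SOT16, and the SOT17 level as a percentage of SOT16 (last panel, linear from 0), in the 4 groups (x axis); points are libraries and bars the mean ± SD over 3 libraries. The group means of SOT17 and SOT16 are highest in irr with Pep1, then irr with water, then WT with Pep1, and lowest in WT with water, SOT18 lies between 3.13 and 7.55 FPKM in all libraries, and the percentage runs from 6.30 to 21.0.

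Across the 12 libraries the members fell into patterns, given here as correlations of log2(FPKM + 1) without a test, since the libraries share 4 groups and low genes share counting noise. MYB28, BCAT4, MAM1, CYP79F1, CYP83A1 and BAT5 made 15 pairs with Pearson's r between 0.64 and 0.96. With group means taken away, the same pairs had r between 0.41 and 0.97, so that these genes also varied together among replicates when all libraries were used. WT water replicate 1 held the highest value of each of the 6 genes, and no r was computed without it. MAM1 and CYP83A1 were the closest pair, at 0.96 and at 0.97 without group means. MAM3 had r between 0.20 and 0.48 with those 6 genes. SOT17 had r between -0.68 and -0.49 with them, and between -0.35 and 0.01 without group means, so its opposite course lay between groups more than among replicates. Scaled to mean 0 and SD 1 and averaged, the 9 expressed members stood at 1.66 in WT water replicate 1 and between -0.73 and 0.25 in the other 11 libraries.

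**Figure D4:**
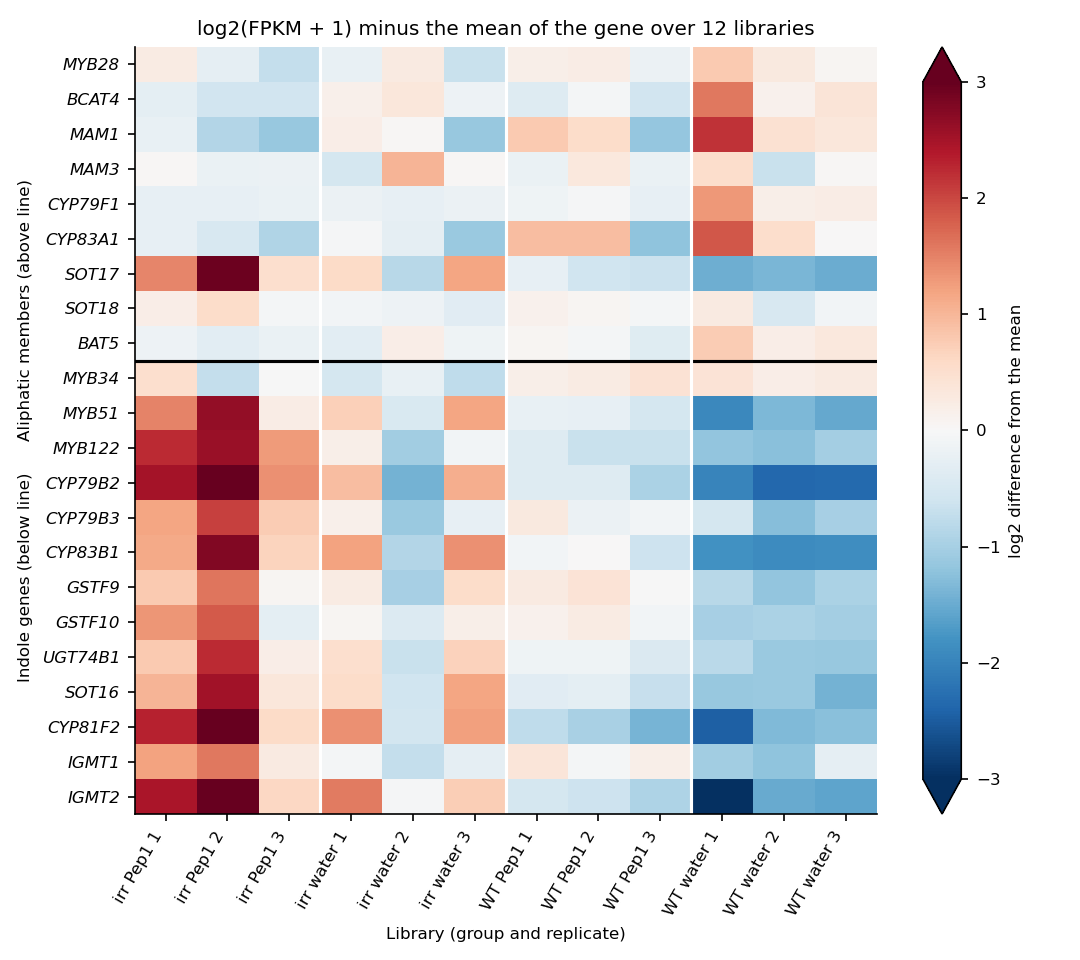
Colour shows log2(FPKM + 1) minus the mean of the gene over 12 libraries (red above, blue below, cut at 3 on either side) for the 9 expressed aliphatic members above the line and 13 indole genes below it (y axis), by library (x axis). SOT17 and SOT16 are reddest in irr Pep1 replicate 2, MYB34 among the indole genes is not, and BCAT4, MAM1, CYP79F1 and CYP83A1 are reddest in WT water replicate 1.

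Genes whose course was most like that of the averaged members were sought among all other genes tested. The closest were CYP96A12 [AT4G39510] with r = 0.94, ROC1 [AT4G38740] with r = 0.90, AT1G30600, AT2G05790, SPL9 [AT2G42200], MCM4 [AT2G16440], IPMI2 [AT2G43100] and AT1G04790, all over 12 libraries. Without group means their r ran from 0.86 to 0.92. The averaged members stood at 1.66 in WT water replicate 1 and at most at 0.25 elsewhere, so these r lean on that library. No r was computed without it. IPMI2, at r = 0.88, is a small subunit of the isomerase that follows MAM1 in chain elongation. It averaged 0.362 FPKM in irr with Pep1, 0.359 FPKM in irr with water, 1.16 FPKM in WT with Pep1 and 1.85 FPKM in WT with water. For SOT17, singled out after its values were seen, the closest genes were PROPEP3 [AT5G64905], TSA1 [AT3G54640] and SOT16, each with r = 0.99 or above and 0.98 or above without group means. PROPEP3 encodes a precursor of a Pep peptide and TSA1 a subunit of tryptophan synthase. PROPEP3 averaged 32.6 FPKM in irr with Pep1, 8.68 FPKM in irr with water, 3.07 FPKM in WT with Pep1 and 0.587 FPKM in WT with water.

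Of 25 other aliphatic genes, 15 were tested, and 1 of these was higher in irr over both treatments, where 8.55% of all genes tested were called higher. It was GGP1 [AT4G30530], a peptidase that acts on the glutathione conjugate in both glucosinolate pathways, which averaged 131 FPKM in irr with Pep1, 55.4 FPKM in irr with water, 48.9 FPKM in WT with Pep1 and 28.6 FPKM in WT with water (difference 1.04 ± 0.28, SE, limma adjusted p = 0.034). Of the 15 differences, 8 lay above 0 and 7 below, with a median of 0.0023 on the log2 scale, against -0.0030 for all genes tested. With Pep1, the glucosinolate transporter gene NPF2.11 [AT5G62680], also called GTR2, was higher in both genotypes. It averaged 37.2 FPKM in irr with Pep1 and 22.2 FPKM in irr with water (difference 0.73 ± 0.14, SE, limma adjusted p = 0.0335). In WT it averaged 36.4 FPKM with Pep1 and 15.6 FPKM with water (difference 1.17 ± 0.14, SE, limma adjusted p = 0.00287). Over both genotypes, FMO GS-OX5 [AT1G12140], a side-chain oxygenase, was higher with Pep1 by 0.33 ± 0.08 (SE, limma adjusted p = 0.0196). The glutathione transferase gene GSTU20 [AT1G78370] was lower with Pep1, with a difference of -0.99 ± 0.27 (SE, limma adjusted p = 0.0361).

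The indole pathway, sulfate activation and breakdown genes were read for comparison. Of 13 indole genes tested, 9 were higher in irr over both treatments and none lower, with a median difference of 1.67, where 8.55% of all genes tested were called higher. MYB34 [AT5G60890], a further indole regulator, was the 1 indole gene whose difference lay below 0. Of the 6 aliphatic members tested 1 was higher, with a median of -0.20. Those called included the regulator MYB51 [AT1G18570], at 1.93 ± 0.36 (SE, limma adjusted p = 0.00779), and CYP79B2 [AT4G39950], at 2.81 ± 0.47 (SE, limma adjusted p = 0.00475). The difference between the lists was not tested. Of 10 sulfur genes tested, 3 were higher in irr over both treatments, against the same 8.55% of all genes tested. APK2 [AT4G39940], a kinase that makes the sulfate donor used by the sulfotransferases, averaged 122 FPKM in irr with Pep1, 42.4 FPKM in irr with water, 10.2 FPKM in WT with Pep1 and 2.66 FPKM in WT with water. Its difference was 3.13 ± 0.50 (SE, limma adjusted p = 0.00397), and those of APK1 [AT2G14750] and APS1 [AT3G22890], of the same route, were 1.12 and 0.92 (limma adjusted p = 0.0334 and 0.021). Of 6 breakdown genes, the nitrile specifier gene NSP5 [AT5G48180] was higher in irr as the mean over both treatments, by 0.41 ± 0.09 (SE, limma adjusted p = 0.0156), against the same 8.55%. Its difference was 0.68 ± 0.13 under water (SE, limma adjusted p = 0.0216) and 0.14 ± 0.13 with Pep1 (SE, limma adjusted p = 0.601). The myrosinase gene TGG2 [AT5G25980] was lower with Pep1 over both genotypes, with a difference of -1.24 ± 0.36 (SE, limma adjusted p = 0.0445).

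The summed levels of tissue markers differed between some of the groups. The summed level of 12 green tissue markers was 57280 to 86800 FPKM in irr with Pep1, 70530 to 83810 FPKM in irr with water, 68600 to 85310 FPKM in WT with Pep1 and 93230 to 111600 FPKM in WT with water. WT with water, where MAM1, CYP83A1, CYP79F1 and MYB28 had their highest means, thus had the highest sums. LHCB1.3 [AT1G29930] alone averaged 44180 FPKM there, of a mean sum of 102300 FPKM. Under water 10 of the 12 markers had an irr minus WT difference below 0, and 2, GAPA [AT3G26650] and GAPB [AT1G42970], above 0. No green marker was called in a comparison of 2 groups or in the irr main effect, and 3 were called lower in the Pep1 main effect. The sum of 11 root markers was 74.8 to 83.2 FPKM in irr with Pep1, 85.9 to 94.4 FPKM in irr with water, 104 to 123 FPKM in WT with Pep1 and 77.6 to 110 FPKM in WT with water. No green or phloem marker was at 0 in any library, and among the root markers WOX5 [AT3G11260] was at 0 in 1 library. The 2 phloem markers summed to 55.0 to 76.7 FPKM in irr with Pep1, 45.9 to 61.1 FPKM in irr with water, 54.0 to 61.6 FPKM in WT with Pep1 and 47.7 to 60.3 FPKM in WT with water. The part of tissue make-up in the members' differences was not tested.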

How the data were processed

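Whole-seedling RNA was sequenced as paired ends, per the labels' protocols. The authors deposited FPKM values, 1 column for each of 12 libraries and 32846 genes. Aligner, counting tool, genome build and annotation: not given in the sources used here. For that reason no coordinates, sequences or promoter motifs are shown, and TAIR10.1 served for names and gene order, with 31912 identifiers matched. Library totals and reads per gene were recovered from the steps between low values. Among low values that already lay close to a whole step, 98.3% to 100% were multiples of the step taken as 1 read. That share leaves out values off the steps, so it does not measure how many values gave whole reads. The length of a gene was the shortest at which all its values above 0 lay within 0.002 of a whole read. In simulated data 12 of 12 totals and 193 of 200 gene lengths were recovered, and 23 of 30 for genes under 100 reads, so reads of low genes are estimates. Reads are not independent molecules, and depth and floors cover counting error only.

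The 18177 genes with at least 1 FPKM in at least 3 libraries were taken as log2(FPKM + 1), that is with a pseudocount of 1. A model with a mean for each group was fitted by limma 3.58.1 in R 4.3.3 to the 12 libraries, with 8 residual degrees of freedom and a trend of variance on mean. All tests are two-sided, adjusted by Benjamini-Hochberg over all genes tested and held to a threshold of 0.05. On simulated data for Pep1 against water in WT over 18177 genes, the fit called 83% of 100 genes altered 2-fold and 94% of 100 altered 4-fold. The change was made on log2(FPKM + 1), with independent normal noise. All altered genes had a mean above 2 on that scale, which some members, MAM3 and CYP83A1 among them, did not reach. The rates are averages over such genes and do not give the power for single members. Unaltered genes made up 8.29% of its 193 calls, and 0 calls arose where nothing had been altered.

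The members, gene lists and tests were chosen with earlier results of these data known. Of 97 list entries 4 were left out, AOP2 for lack of a row and UGT74C1, GSL-OH and SDI2 because the reference did not give those names. Named genes are all members, up to 4 called genes per list and comparison, and the 8 genes most like the members' mean. Those called and named are not always the ones with the largest differences. In the irr main effect IGMT2, CYP81F2 and CYP83B1 also passed, with larger differences (2.79, 2.72 and 2.09) than MYB51. MYB34 was named although it was not called. The genes beside a member and those most like SOT17 were added after values were seen. The alternatives changed the pseudocount (0.1 or 5), the filter (none, or mean FPKM of 5 and above), the scaling (equal medians or quantiles), the model (replicate number as a block, variance without a trend, quality weights by library) or the libraries (the 2 groups compared only, or each library left out in turn).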

Additional observations from a re-analysis of the deposited data

How the results depend on the processing

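SOT17 was called higher in irr over both treatments in the fit as reported and in 21 alternatives that could be run for it, with log2 differences from 1.16 to 2.41 and adjusted p from 0.00158 to 0.0305. Of 871 values of single members under alternatives, 821 kept direction and side of the threshold, 15 passed newly, 35 changed sign and 0 lost a call. All sign changes were in differences that did not pass.

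No label says whether libraries of the same replicate number belong together. Over all genes tested, deviations of same-numbered libraries had r from -0.52 to 0.19, with 3 of 18 above 0.1. Of 12 libraries, 2 correlated best with their own number. With 3 libraries a group these r cannot decide whether the numbers pair the samples. MAM1, CYP83A1 and MYB28 were lowest in replicate 3 in all 4 groups. With the replicate number as a block, 3 members were called in the irr main effect in place of 1, MAM1 (-1.05 ± 0.23, SE, limma adjusted p = 0.0228), CYP83A1 (-1.02 ± 0.24, SE, limma adjusted p = 0.0307) and SOT17, and the block changed no other member's call. Calls over all genes in the irr main effect were 1969 with the block, against 2262 without it, of 18177 tested. For the other comparisons that moved by more than 1.5 times, the block took them from 362 to 147 for Pep1 in irr, from 713 to 389 for irr under water and from 278 to 82 for irr with Pep1.

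The count of members called was 1 (SOT17) in place of 0 for Pep1 in WT when the other 2 groups were left out of the fit, and 1 (SOT17) in place of 0 for irr with Pep1 and for the Pep1 main effect with library quality weights. Calls over all genes were then 1974, 1821 and 3425 of 18177, against 630, 278 and 2100 in the fit as reported. Leaving out 1 library gave counts of members called of 0 to 0 for Pep1 in WT, 0 to 1 for Pep1 in irr, irr under water, irr with Pep1 and the Pep1 main effect, 1 to 3 for the irr main effect and 0 to 0 for the interaction. The cause was not tested.

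Signs that changed without leaving out a library were those of MAM3 for Pep1 in WT (-0.012 with a pseudocount of 5, -0.050 with equal medians, -0.051 with quantile normalization, -0.085 with weights), MYB28 for Pep1 in irr (0.17 with weights), MAM3 for irr with Pep1 (0.051 with weights) and SOT18 in the irr main effect (-0.0012 with equal medians). Leaving out 1 library, log2 differences ran for Pep1 in WT from -0.31 to 0.28 (MAM3), -0.040 to 0.33 (SOT18) and -0.97 to 0.14 (CYP83A1); for Pep1 in irr from -0.29 to 0.20 (MYB28), -0.64 to 0.13 (MAM3) and -0.40 to 0.14 (CYP83A1). They ran for irr under water from -0.28 to 0.10 (SOT18) and -0.21 to 0.56 (MAM3), for irr with Pep1 from -0.17 to 0.090 (MAM3), for the Pep1 main effect from -0.52 to 0.031 (CYP83A1) and -0.32 to 0.069 (MAM3), and for the irr main effect from -0.15 to 0.24 (MAM3) and -0.046 to 0.14 (SOT18). For the interaction they ran from -0.13 to 0.84 (MAM1), -0.22 to 0.89 (CYP83A1), -0.65 to 0.13 (MAM3) and -0.27 to 0.95 (SOT17).

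Calls over all genes without 1 library ran from 105 to 1048 for Pep1 in WT, 0 to 1405 for Pep1 in irr, 46 to 1431 for irr under water, 24 to 1646 for irr with Pep1, 1116 to 3240 for the Pep1 main effect and 1314 to 3266 for the irr main effect. Depth limits MYB29, BCAT4, CYP79F1 and BAT5 most, with 65, 271, 137 and 127 reads over 12 libraries.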
